A study of Mus musculus with 12 samples.

Results

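Epididymal white adipose tissue (EWAT), the visceral fat pad attached to the epididymis in the male abdomen, is described here by its 3 libraries against the 9 libraries of the other depots sampled in the same study. The 3 libraries were taken by their labels, out of 12 in all, and were compared with the mean of interscapular brown adipose tissue (BAT), inguinal white adipose tissue (IWAT), which is subcutaneous, and retroperitoneal white adipose tissue (RWAT), with 3 libraries each. All 4 groups were wild type male C57BL/6J mice aged 6 to 10 weeks, fed a standard low-fat rodent diet, and the fat in every group had been surgically denervated. No innervated fat was analysed here, so each value belongs to denervated tissue. The comparison asks which genes set epididymal fat apart from the other depots, and which of them were high or low in EWAT against each of BAT, IWAT and RWAT.

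Fat depots arise from different mesoderm, and their adipocyte precursors keep the transcription factors of their place of origin. Subcutaneous and brown precursors express homeobox and T-box factors such as Tbx15, En1 and Shox2, while fat inside the abdomen is covered by mesothelium, an epithelial sheet marked by Wt1, uroplakins and keratins. Epididymal fat also lies against the epididymis and close to the testis, whose epithelium and germ cells have their own highly expressed genes.

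The EWAT libraries held 16562186, 20219615 and 16358051 counts, within the range of 15699912 to 25633413 over all 12. Levels below are CPM, counts scaled to 1e+06 per library after TMM scaling, and fold changes are log2 differences with their standard errors (SE). Nothing in the labels ties the replicates of a group to different animals, so every p-value reflects the spread among these libraries alone, part of which may be technical. Adipocyte genes were present in EWAT at 513, 640 and 297 CPM for Adipoq, the adiponectin gene, and at 2181, 2068 and 1668 CPM for Fabp4, the fatty acid binding protein of adipocytes. Ucp1, the uncoupling protein of brown fat, had 0, 2 and 1 counts in EWAT. Wt1 was at 20.6 to 38.8 CPM in EWAT and at most 0.157 CPM in BAT and IWAT, so this marker of visceral fat and mesothelium was present in the 3 libraries. It was present in RWAT too, at 4.05, 11.0 and 34.8 CPM, with RWAT 3 within the range of EWAT.

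The 3 EWAT libraries also carried genes of the neighbouring organs, to very different degrees, and these values stand before the results because they touch them. A list of 25 epididymal epithelium and sperm genes, 1 of the first gene lists, summed to 1456, 306 and 69.4 CPM in EWAT 1, 2 and 3. It summed to 3.57 to 14.45 CPM in the other depots. The epididymal and testicular lists that follow were added after values were seen. A list of 20 epididymal epithelium genes summed to 2308 CPM in EWAT 1, 33.2 CPM in EWAT 2 and 10.4 CPM in EWAT 3, against 1.02 to 2.56 CPM in the other depots. Crisp1, a secreted epididymal protein that coats sperm, was at 1142 CPM in EWAT 1, 0 in EWAT 2 and 0.35 CPM in EWAT 3. EWAT 2 led instead in the germ cell genes. A list of 23 spermatid genes summed to 8.81, 585 and 244 CPM in EWAT 1, 2 and 3, against 5.45 to 9.55 CPM elsewhere. Ldhc, the sperm lactate dehydrogenase, was at 0.0528, 145 and 48.3 CPM, and Akap4, a protein of the sperm tail sheath, was at 0, 34.4 and 19.8 CPM. EWAT 2 and EWAT 3 thus held sperm genes that EWAT 1 did not. Genes of Sertoli and Leydig cells summed to 71.9, 281 and 25.8 CPM, against 8.81 to 30.1 CPM elsewhere. Of the other depots only RWAT 3, at 30.1 CPM, was above EWAT 3, and the next highest, RWAT 2, was at 11.85 CPM. EWAT 3 held 7 members of that list at 1 CPM or more, against 4 to 5 in the other 9 libraries. Genes of at least 10 CPM in 1 library and under 1 CPM in all libraries of the other depots numbered 53 in EWAT 1, 216 in EWAT 2 and 40 in EWAT 3, and 0 to 2 in each of the other 9 libraries. Outside EWAT, 18 skeletal muscle markers summed to 21930, 15590 and 2612 CPM in BAT and to 18300 CPM in RWAT 3, and to 62.9 to 76.1 CPM in EWAT. The part of these tissues in the results below was not tested, and results are given without the libraries concerned.

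**Figure D1:**
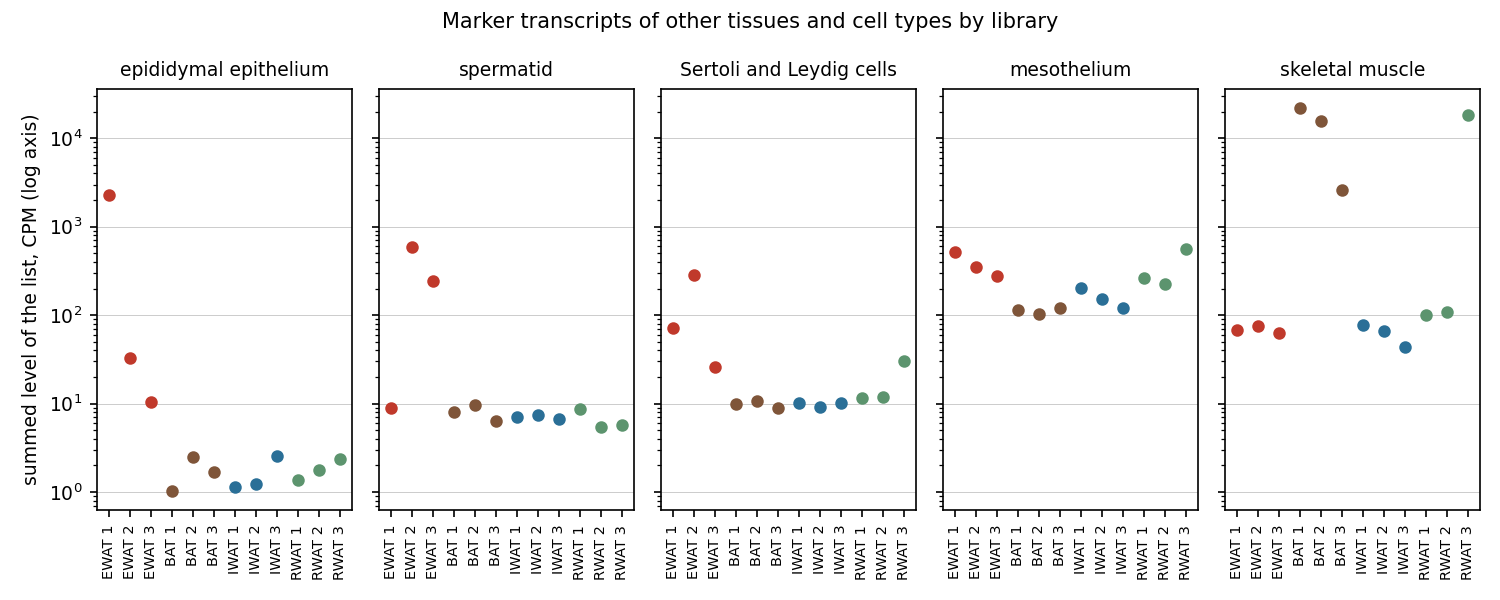
Summed CPM (log axis) of 5 marker lists in each of the 12 libraries, by depot; each point is 1 library. The epididymal epithelium list stands highest in EWAT 1 (2308 CPM), the spermatid list in EWAT 2 (585 CPM), and skeletal muscle markers in 3 BAT libraries and RWAT 3.

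Against the mean of the other depots, 499 genes were higher in EWAT (2.61% of the 19154 tested) and 170 were lower (0.888%), at a Benjamini-Hochberg adjusted p under 0.05 in edgeR's quasi-likelihood test. The higher genes were uneven within EWAT: 321 of the 499 (64.3%) were highest in EWAT 2, against 35.6% of all genes tested. In 268 of them (53.7%) the highest EWAT library exceeded the lowest by more than 4-fold. Of the lower genes 22 of 170 (12.9%) were past that spread, with a median ratio of highest to lowest of 1.33. Over all genes tested, 8.59% were past it, with a median ratio of 1.43. All 3 EWAT libraries lay above the other 9 in 238 of the 499 genes, and below them in 109 of the 170, with no overlap between the groups. Over all genes tested, 683 (3.57%) lay above and 494 (2.58%) below. Without TMM scaling the split moved to 600 higher and 81 lower, so higher genes made up 88.1% of calls in place of 74.6%.

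The count of calls moved with the libraries used. Without EWAT 2, 49 genes were higher and 7 lower. Without EWAT 3, 305 were higher and 32 lower, and without EWAT 1, 1565 were higher and 153 lower. Each of these fits filtered genes anew. They tested 19608 genes without EWAT 2, 19729 without EWAT 3 and 20615 without EWAT 1, against 19154 with all libraries. Without EWAT 1, genes seen in EWAT 2 and EWAT 3 alone could pass the filter. Of the 499 higher genes, 436 were still called without EWAT 1. All 49 genes left without EWAT 2 were among the 499. Leaving out any 1 library of the other depots gave 735 to 1317 higher and 107 to 377 lower genes, with 20525 to 20694 genes tested. When each of the 12 libraries was left out in turn, 46 of the 499 higher genes (9.22%) and 7 of the 170 lower genes (4.12%) were called in every fit. A further 186 higher and 24 lower genes were lost only without EWAT 2. The 7 lower genes included Zfhx4, Mmp3, Tbx15, Lhx8, Tmeff2 and Gfra2, and all 3 EWAT libraries lay below the other 9 in each. Among the 46 higher genes were Bspry, Wt1, Bnc1, Krt8, Cdh3, Upk3b, Upk1b, Col4a6, Col6a5, Gata5, Myrf, Lrp2 and Epcam, which are described below. With EWAT and the other depots fitted as 2 groups, Wt1, Bnc1, Krt8, Upk3b, Upk1b, Col4a6, Col6a5, Gata5, Myrf and Lrp2 were not called. Lhx8 was not called in that fit either. A called gene outside the sets of 46 and 7 lost its call in at least 1 of the 12 fits that left out a library. Its adjusted p without EWAT 2 is given where its own levels are described, and mostly not where the gene is only named.

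**Figure D2:**
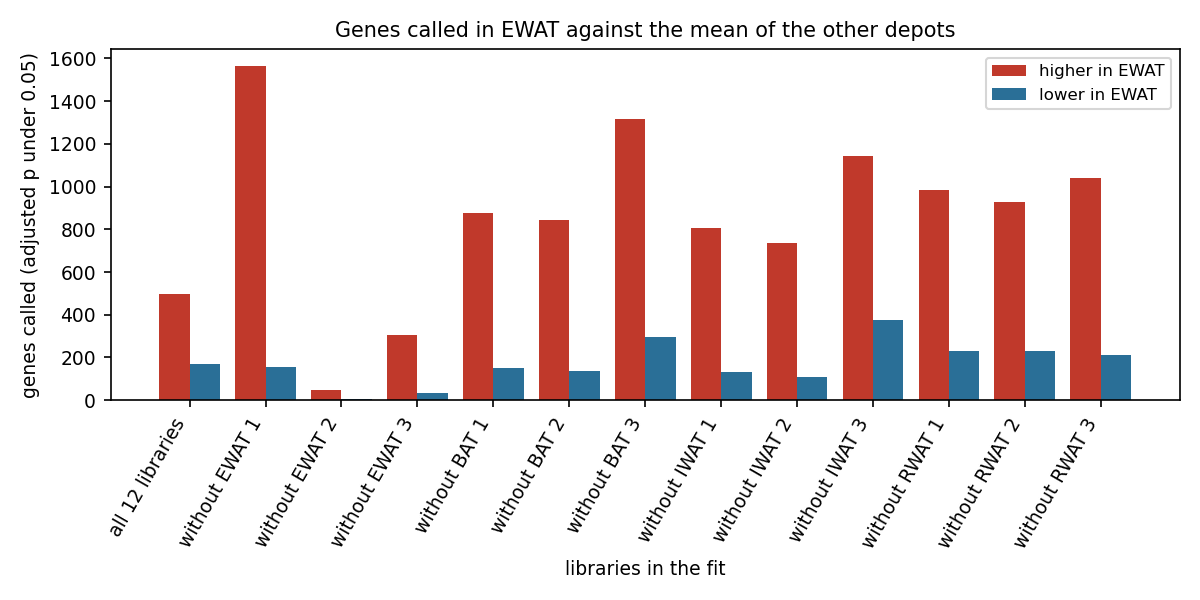
Number of genes called (vertical axis) higher in EWAT (red bars) and lower in EWAT (blue bars) against the mean of the other depots, with all 12 libraries and with each library left out. The bars are shortest without EWAT 2 (49 higher, 7 lower), against 499 and 170 with all libraries. Genes were filtered anew in each fit, so the number tested differs.

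Against each depot alone, EWAT had 72 higher (0.376%) and 78 lower genes (0.407%) compared with BAT, 28 (0.146%) and 38 (0.198%) compared with IWAT, and 4 (0.0209%) and 4 (0.0209%) compared with RWAT. The 3 comparisons share the EWAT libraries. A gene was taken as high or low only in EWAT when it passed the test against the mean and against each depot, each time changed by 1 or more on the log2 scale. That left 1 gene high only in EWAT, Bspry (0.00522% of genes tested), and 4 genes low only in EWAT (0.0209%), among them Zfhx4, Mmp3 and Tbx15. Without EWAT 2 no gene met this in either direction. Without EWAT 1 the numbers were 655 high and 27 low, among 20615 genes tested after filtering anew, in place of 19154. Zfhx4 and Mmp3 stayed low only in EWAT in the other 11 fits that left out 1 library. Tbx15 dropped out also without BAT 1, BAT 2, EWAT 3, IWAT 1 or IWAT 2. The 4 genes lower against RWAT were these same 4, and the 4 genes higher against RWAT were Bspry, Rps16, Rps16-ps2 and Gm12918.

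Zfhx4, a large zinc finger and homeobox transcription factor (ENSMUSG00000025255, GRCm38 chr3:5218526-5415857, plus strand), was at 12.7, 9.85 and 8.70 CPM in EWAT. It was at 61.3, 106 and 81.3 CPM in BAT, at 78.8, 85.0 and 69.7 CPM in IWAT, and at 64.7, 58.0 and 65.1 CPM in RWAT. All 3 EWAT libraries lay below the other 9, and the groups did not overlap. The level in EWAT was 10.4 ± 2.07 CPM (SD, n = 3). The log2 fold change against the mean was -2.83 (SE 0.21, edgeR Benjamini-Hochberg adjusted p 0.00107), and it was -2.99, -2.90 and -2.59 against BAT, IWAT and RWAT (adjusted p 0.00121, 0.000997 and 0.00347). The gene overlaps 2700069I18Rik on the opposite strand, and no source used here says that reads were counted by strand.

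Mmp3 encodes stromelysin-1, a matrix metalloproteinase secreted by fibroblasts (ENSMUSG00000043613, chr9:7445822-7455975, plus strand). It was at 0.95, 1.11 and 1.15 CPM in EWAT, from 18, 26 and 23 counts. The other depots had 44.7, 55.5 and 54.1 CPM in BAT, 52.5, 50.7 and 76.5 CPM in IWAT, and 21.4, 8.198 and 28.4 CPM in RWAT. RWAT was thus the lowest of the other depots, and EWAT lay below every one of its libraries. The log2 fold change was -5.18 against the mean (SE 0.42, adjusted p 0.00132) and -4.16 against RWAT alone (adjusted p 0.00607). In the list of 21 metalloproteinases and their TIMP inhibitors, Mmp3 was the only member lower, and Mmp11, a stromal metalloproteinase, the only one higher (11.3, 46.9 and 10.2 CPM in EWAT, adjusted p 0.0286, and 0.292 without EWAT 2). Each call was 4.76% of the list, against 0.888% lower and 2.61% higher over all genes tested. These are results of single genes and not of the list.

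Tbx15, a T-box factor of brown and subcutaneous precursors (ENSMUSG00000027868, chr3:99240381-99354259, plus strand), had 1, 4 and 0 counts in the 3 EWAT libraries. It was at 36.8, 38.3 and 24.7 CPM in BAT, at 27.0, 21.1 and 26.9 CPM in IWAT, and at 4.35, 6.40 and 21.9 CPM in RWAT. The gene was close to undetected in EWAT at this depth, and RWAT 1 and RWAT 2 were intermediate. The fitted log2 fold change of -7.93 (SE 0.83, adjusted p 0.00212) rests on these few counts and on the prior count of the fit, so the levels are the better measure. In a bulk library, fewer cells of a type and less RNA per cell cannot be told apart. Tbx15 overlaps Gm43120 on the opposite strand.

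Bspry, a protein with B-box and SPRY domains (ENSMUSG00000028392, chr4:62480053-62497298, plus strand), was the one gene high only in EWAT. It was at 8.60, 19.9 and 3.85 CPM in EWAT and at 0.27 to 0.734 CPM in the other 9 libraries. The groups did not overlap, and EWAT 2 had the highest level. The log2 fold change was 4.41 against the mean (SE 0.41, adjusted p 0.00181), and 4.15, 4.24 and 4.84 against BAT, IWAT and RWAT (adjusted p 0.0323, 0.0256 and 0.0376). Among the 12 fits that left out 1 library, Bspry was called against every depot in those without EWAT 1 and without EWAT 3, while the call against the mean held in all 12. It was a member of the mammary and skin epithelial list, of which 8 were tested and 4 were higher: Bspry, Epcam, Cldn3 and Cldn4, the last 2 with an adjusted p of 0.0535 and 0.0932 without EWAT 2. Epcam, an epithelial adhesion molecule, was at 15.99, 3.26 and 1.20 CPM in EWAT and at most 0.272 CPM elsewhere. Both were lowest in EWAT 3, and the highest library was EWAT 2 for Bspry and EWAT 1 for Epcam. In EWAT 1, 2 and 3 the epididymal epithelium list summed to 2308, 33.2 and 10.4 CPM. The Sertoli and Leydig cell list summed to 71.9, 281 and 25.8 CPM, in the same order of libraries as Bspry. Which cells the Bspry transcripts came from was not tested.

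**Figure D3:**
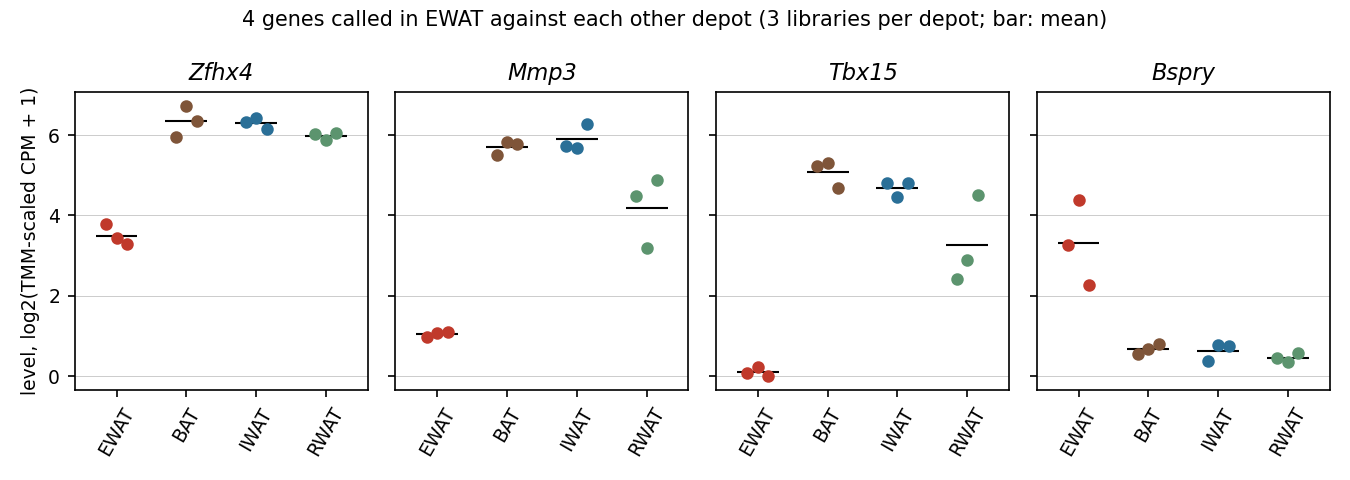
Levels, as log2 of CPM plus 1, of 4 genes high or low only in EWAT, by depot; points are libraries and bars are means of 3. Zfhx4, Mmp3 and Tbx15 lie below every library of the other depots, and Bspry lies above them.

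The sequence before the transcription start is shown for 4 genes, whose promoters differ in base composition. Windows of 250 bases came from a RefSeq table of GRCm38.p6, in which 4 of 7 genes asked for were matched. Capitals mark the motifs searched on both strands: the TATA box as TATAAA, the AP-1 site as TGANTCA, the GC box as GGGCGG and the CCAAT box by its name. Mmp3 and Bspry are shown as genes of the depot-only set, and Bnc1 and Upk3b as genes of the mesothelial group described below.
Mmp3: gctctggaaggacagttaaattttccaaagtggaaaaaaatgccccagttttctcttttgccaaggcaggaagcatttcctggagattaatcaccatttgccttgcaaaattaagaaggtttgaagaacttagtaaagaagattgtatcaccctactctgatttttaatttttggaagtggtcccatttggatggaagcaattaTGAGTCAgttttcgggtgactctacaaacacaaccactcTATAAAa
Bspry: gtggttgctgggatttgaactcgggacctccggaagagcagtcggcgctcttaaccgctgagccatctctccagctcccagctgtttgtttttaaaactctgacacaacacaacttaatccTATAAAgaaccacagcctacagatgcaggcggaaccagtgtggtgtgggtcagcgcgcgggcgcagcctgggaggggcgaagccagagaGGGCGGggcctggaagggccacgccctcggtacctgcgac
Bnc1: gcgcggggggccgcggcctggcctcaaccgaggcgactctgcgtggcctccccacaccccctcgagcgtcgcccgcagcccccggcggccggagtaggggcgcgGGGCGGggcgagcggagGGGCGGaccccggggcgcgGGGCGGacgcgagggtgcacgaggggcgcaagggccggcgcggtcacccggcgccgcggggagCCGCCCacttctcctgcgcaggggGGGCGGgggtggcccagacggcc
Upk3b: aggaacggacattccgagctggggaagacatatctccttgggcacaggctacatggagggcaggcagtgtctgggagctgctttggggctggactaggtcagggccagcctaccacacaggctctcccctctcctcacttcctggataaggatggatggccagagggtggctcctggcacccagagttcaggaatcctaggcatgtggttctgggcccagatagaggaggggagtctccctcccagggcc
The Mmp3 window (chr9:7445572-7445821, plus strand) had a GC content of 37.6%, 1 CpG, a TATA box 7 bases before the start and an AP-1 motif 46 bases before it. The Bspry window (chr4:62479812-62480061, plus strand) had a GC content of 59.6% and 15 CpGs, with a TATA box and a GC box. The Bnc1 window (chr7:81992300-81992549, minus strand) had a GC content of 83.6%, 39 CpGs and 5 GC boxes. The Upk3b window (chr5:136038246-136038495, plus strand) had a GC content of 60.8%, 2 CpGs and none of the 4 motifs. Of the 32851 windows in the table, 12.4% held the TATA box, 6.75% the AP-1 site, 32.7% the GC box and 33.8% the CCAAT box. A match is a description of these letters only.

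Other transcription factors of subcutaneous and brown precursors were also low in EWAT. Of 18 tested factors on the subcutaneous list, 8 were lower (among them Zfhx4, Tbx15, En1, Shox2, Twist1, Twist2 and Meox2) and 0 higher, and the list's median log2 fold change was -1.29 against 0.03 over all genes tested. The share lower was 44.4%, against 0.888% of all genes tested. In 7 of the 8 the EWAT libraries lay below the other 9, the exception being Shox2. The same held for 64.1% of the 170 lower genes. En1, the engrailed homeobox factor of dermal and subcutaneous fibroblasts, was at 0.897, 0.60 and 0.70 CPM in EWAT and at 2.08 to 4.91 CPM elsewhere (log2 fold change -2.21, adjusted p 0.011). Shox2, a short stature homeobox factor, was at 0.422, 0.385 and 0.05 CPM in EWAT and at 0.417, 0.991 and 2.01 CPM in RWAT. It was at 4.84 to 28.5 CPM in BAT and IWAT. Shox2 was therefore low in EWAT and in RWAT, and its call against the mean (-4.35, adjusted p 0.0124) came without a call against RWAT (adjusted p 0.409). The number of lower factors on this list was 3 without EWAT 2, 5 without EWAT 3, 9 without EWAT 1 and 5 without TMM scaling. En1 and Shox2 both had an adjusted p of 0.0758 without EWAT 2.

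Lhx8, Gfra2 and Tmeff2 were also among the 7 genes that were lower in every fit. Lhx8, a LIM homeobox factor of brown precursors, was at 0, 0.0857 and 0.05 CPM in EWAT and at 0.163 to 0.315 CPM in RWAT, against 2.19 to 14.3 CPM in IWAT and BAT. It was thus close to the floor of 3 counts in EWAT and RWAT alike. Gfra2, the receptor for the nerve growth factor neurturin, was at 2.80, 2.40 and 1.3 CPM in EWAT and at 7.34 to 13.3 CPM in the other 9 (log2 fold change -2.28, adjusted p 0.00669). Tmeff2, a transmembrane protein with follistatin-like domains, was at 6.54, 5.05 and 5.001 CPM in EWAT and at 11.0 to 32.2 CPM elsewhere (-1.78, adjusted p 0.00566). Against RWAT alone neither passed the test, at log2 fold changes of -2.26 for Gfra2 and -1.36 for Tmeff2 (adjusted p 0.0652 and 0.128). Gfra2 and Tmeff2 were chosen for description after their values were seen.

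Homeobox genes of the Hox clusters gave no call: 0 of 26 tested were higher or lower by edgeR, with a median of -0.33. At an unadjusted p under 0.05 there were 5, below the share of 22.5% over all genes tested; DESeq2 called 3 lower, limma-voom 0, and limma-voom with quality weights 4 lower. Hoxc10, a posterior Hox gene, was at 0.739, 0.214 and 0.65 CPM in EWAT and at 0 to 0.0787 CPM in BAT. It was at 5.95 to 10.6 CPM in IWAT and at 1.47 to 7.80 CPM in RWAT. EWAT thus lay between BAT and the other white depots, so that the mean of the other depots is a poor reference for this gene (log2 fold change -0.98, adjusted p 0.535). Of 8 tested T-box genes 2 were lower, Tbx15 and Tbx5, against 0.888% of all genes tested. The list's median was -0.03, with 3 members above 0 and 5 below, so these are results of single genes. Tbx5, a factor of heart and forelimb, was at 0.211, 0.214 and 0.15 CPM in EWAT, at 0.135 to 0.435 CPM in RWAT, and at 1.27 to 2.83 CPM in BAT and IWAT (-2.32, adjusted p 0.0223, and 0.132 without EWAT 2).

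Of 20 thermogenic genes tested, 6 were lower in EWAT (30.0%, against 0.888% of all genes tested): Ucp1, Cox8b, Ppargc1a, Otop1, Ebf2 and Lhx8. All 20 had a log2 fold change against the mean below 0 (median -3.14). The list summed to 109 to 135 CPM in EWAT. RWAT 2 lay within that range at 123 CPM, and RWAT 3 was near it at 146 CPM. Ucp1 had 0, 2 and 1 counts in EWAT and was at 2962, 32.2 and 702 CPM in BAT, 47.6, 130 and 21.5 CPM in IWAT and 12.4, 1.31 and 0.163 CPM in RWAT. RWAT 3 approached the EWAT level, and the libraries of BAT and of RWAT differed widely among themselves. The call for Ucp1 (adjusted p 0.0351) was lost without EWAT 1, 2 or 3, at adjusted p 0.0589, 0.194 and 0.133. Ebf2, a transcription factor of brown and beige precursors, was at 17.5, 11.99 and 12.1 CPM in EWAT and at 30.3 to 66.3 CPM elsewhere (-1.78, adjusted p 0.00874, and 0.0668 without EWAT 2). Without EWAT 1, 2 or 3 in turn, 3, 1 and 2 thermogenic genes were called.

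Among 20 genes of adipocyte progenitors and fibroblasts, 4 were lower and 0 higher. Over all genes tested, 0.888% were lower and 2.61% higher. The list's median log2 fold change was -0.67, with 14 members below 0 and 6 above. Ly6c1, a surface protein of stromal and endothelial cells, was at 23.3, 26.8 and 26.5 CPM in EWAT and at 53.5 to 128 CPM elsewhere (-1.68, adjusted p 0.00793). Ebf1, an early B cell factor that also acts in adipocyte precursors, was at 69.4, 55.6 and 46.5 CPM against 88.7 to 166 CPM (-1.11, adjusted p 0.0311). Both were below the other 9 libraries throughout. Pi16, a marker of interstitial progenitors, was at 11.4, 9.38 and 11.0 CPM in EWAT and at 9.41 to 82.0 CPM in RWAT, where it overlapped. Ly6a, the Sca-1 antigen, was the other lower member (adjusted p 0.0409). Without EWAT 2 none of the 4 was called, and without EWAT 3 there was 1. Their adjusted p without EWAT 2 was 0.0575 for Ly6c1, 0.194 for Ebf1, 0.223 for Pi16 and 0.244 for Ly6a.

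Of 25 collagens and matrix genes 1 was lower (4.0%, against 0.888% of all genes tested) and 0 higher. The list's median was -0.09, and 0.09 without TMM scaling, so the 1 call is a result of a single gene. That gene was Tnxb, the matrix protein tenascin-X, at 189, 135 and 91.6 CPM in EWAT, at 490 to 871 CPM in BAT and IWAT, and at 142 to 585 CPM in RWAT (-2.06, adjusted p 0.0288). Of 21 Wnt ligands and modulators, Dkk2, Sfrp4 and Wnt10b were lower and Wnt4, Rspo1 and Wnt6 higher. These were 14.3% in each direction, against 0.888% lower and 2.61% higher over all genes tested. Dkk2, a secreted Wnt modulator, was at 0.317, 0.257 and 1.25 CPM in EWAT and at 1.64 to 24.3 CPM elsewhere (-3.72, adjusted p 0.0361). Wnt4, a Wnt ligand of the urogenital tract, was at 22.4, 18.5 and 13.5 CPM in EWAT, at 2.68 to 4.88 CPM in BAT and IWAT, and at 5.72 to 19.7 CPM in RWAT (1.84, adjusted p 0.017). Rspo1, an amplifier of Wnt signals, overlapped with RWAT in the same way. Without EWAT 2 the adjusted p was 0.187 for Tnxb, 0.203 for Dkk2, 0.10 for Wnt4 and 0.115 for Rspo1. Wnt6 was at 14.4 CPM in EWAT 2 and under 1 CPM in EWAT 1 and EWAT 3, and its adjusted p was 0.0397 with EWAT 2 and 0.611 without it.

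The BMP and TGF-beta list had 28 tested members, of which Gdf6 and Fstl3 were higher (7.14%) and Fst lower (3.57%). Over all genes tested the shares were 2.61% and 0.888%. Gdf6, a BMP ligand, was at 6.81, 2.61 and 3.45 CPM in EWAT and at most 2.99 CPM elsewhere, in RWAT (3.07, adjusted p 0.0187). Fst, the activin antagonist follistatin, was at 7.81, 6.47 and 5.10 CPM against 9.53 to 18.4 CPM (-1.16, adjusted p 0.0304). Fstl3, a follistatin-like antagonist, was at 20.1 CPM in EWAT 2 and within the range of RWAT in EWAT 1 and EWAT 3. Of 26 FGF, IGF and axon guidance ligands, Sema3e and Ntn1 were lower (7.69%) and Igfbp2 higher (3.85%). Igfbp2, a binding protein of insulin-like growth factors, was at 1.32, 3.13 and 0.65 CPM in EWAT, above the 0 to 0.393 CPM of the other 9 (3.35, adjusted p 0.0326). Sema3e, a semaphorin of vessel and axon guidance, was at 1.32, 1.46 and 1.00 CPM in EWAT, below the 1.49 to 10.47 CPM of the other 9 (-2.23, adjusted p 0.019). The angiopoietin receptor Tek was the 1 member called of 16 endothelial markers (6.25%), at 20, 23.4 and 22.8 CPM against 33.0 to 64.5 CPM (-1.06, adjusted p 0.011). In lists of this size such shares come from 1 or 2 calls, so they are results of single genes. Without EWAT 2 none of these passed, at adjusted p 0.0693 for Gdf6, 0.179 for Fst, 0.271 for Fstl3, 0.11 for Sema3e, 0.28 for Igfbp2, 0.163 for Ntn1 and 0.0683 for Tek.

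Major urinary proteins, lipocalins that carry pheromones and are made mainly in liver, were nearly undetected in EWAT. Their sum was 1.27, 2.78 and 0.35 CPM in EWAT, 326 to 561 CPM in BAT, 760 to 3828 CPM in IWAT and 52.1, 2.16 and 12.7 CPM in RWAT. RWAT 2 lay within the EWAT range. Of 11 tested members 7 were lower (63.6%, against 0.888% of all genes tested). These were Mup1, Mup2, Mup9, Mup10, Mup11, Mup14 and Mup16, with 0 of them called without EWAT 2 and 2 without EWAT 3. The members are near-identical copies among which reads can be split, so single members are uncertain and the sum is the firmer value.

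On the high side, mesothelial markers had the largest share of called members among the 29 gene lists. Of 17 tested, 15 were higher (88.2%, against 2.61% of all genes tested) and 0 lower, with a median log2 fold change of 3.75 against 0.03 over all genes tested. Fgf9 and Rarres2 were not called. The list summed to 519, 354 and 280 CPM in EWAT, 102 to 121 CPM in BAT, 120 to 203 CPM in IWAT, and 263, 227 and 563 CPM in RWAT. RWAT 3 was thus above every EWAT library, and the comparison with RWAT alone called none of these genes. The number of markers higher was 6 without EWAT 2, 11 without EWAT 3, 13 without EWAT 1 and 15 without RWAT 3.

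Wt1, the Wilms tumour transcription factor of mesothelium and urogenital mesoderm (ENSMUSG00000016458, chr2:105126529-105173616, plus strand), was at 30.1, 38.8 and 20.6 CPM in EWAT. In RWAT it was at 4.05, 11.0 and 34.8 CPM, and in BAT and IWAT it had at most 0.157 CPM. The first RWAT libraries were below EWAT and RWAT 3 was within it. The log2 fold change against the mean was 6.51 (SE 0.64, adjusted p 0.00187), carried by BAT and IWAT at the floor; against RWAT it was 0.85 (SE 0.69, adjusted p 0.79). Bnc1, the zinc finger factor basonuclin of epithelia and mesothelium, was at 16.6, 9.34 and 9.60 CPM in EWAT and at 3.34, 2.84 and 12.6 CPM in RWAT, with at most 0.104 CPM in BAT and IWAT (5.51, adjusted p 0.00187). Upk3b, a uroplakin of the mesothelial surface, was at 53.2, 22.8 and 17.6 CPM in EWAT and at 15.4, 10.1 and 38.7 CPM in RWAT (5.51, adjusted p 0.00566). Upk1b, another uroplakin, was at 29.6, 14.8 and 12 CPM in EWAT and at 4.17, 5.81 and 31.1 CPM in RWAT (6.23, adjusted p 0.0041). In all 4 genes RWAT 3 exceeded at least 1 EWAT library.

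Cdh3, the gene of P-cadherin, was the 1 mesothelial marker whose EWAT libraries all lay above the other 9, at 41.4, 29.6 and 24.5 CPM against 1.73, 5.05 and 19.5 CPM in RWAT (5.18, adjusted p 0.00622). Krt8, a keratin of simple epithelia, was at 42.2, 33.5 and 21.6 CPM in EWAT and at 2.14, 5.86 and 34.0 CPM in RWAT (5.86, adjusted p 0.00647). Msln, the surface protein mesothelin, was at 25.96, 12.9 and 10.8 CPM in EWAT and reached 48.2 CPM in RWAT 3. Its call (3.92, adjusted p 0.0144) was lost without EWAT 2 (adjusted p 0.0685).

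Of 13 tested visceral developmental factors 6 were higher (Wt1, Bnc1, Gata4, Gata5, Tcf21 and Hand2) and 1, Irf4, was lower. These were 46.2% and 7.69%, against 2.61% and 0.888% of all genes tested. Gata5, a zinc finger factor of heart and gut mesoderm, was at 5.96, 2.57 and 3.25 CPM in EWAT and at 0.655, 1.22 and 5.49 CPM in RWAT (4.50, adjusted p 0.0112). Gata4, a related factor that also acts in Sertoli cells, was at 1.27, 19.7 and 0.85 CPM, so EWAT 2 had most of it. Gata4 had an adjusted p of 0.0102 with all libraries and of 0.0758 without EWAT 2. Tcf21, a bHLH factor of visceral fat precursors, was at 1.69, 4.80 and 1.05 CPM in EWAT and at most 0.544 CPM elsewhere, with 32, 112 and 21 counts in EWAT. All EWAT libraries were above the other 9, yet the adjusted p of 0.0168 rose to 0.12 without EWAT 2. Irf4, an interferon regulatory factor of adipocytes and lymphocytes, was at 7.54, 6.38 and 4.95 CPM in EWAT and at 12.4, 3.92 and 7.12 CPM in RWAT. It was at 17.6 to 44.6 CPM in BAT and IWAT (-1.66, adjusted p 0.0428, and 0.216 without EWAT 2).

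**Figure D4:**
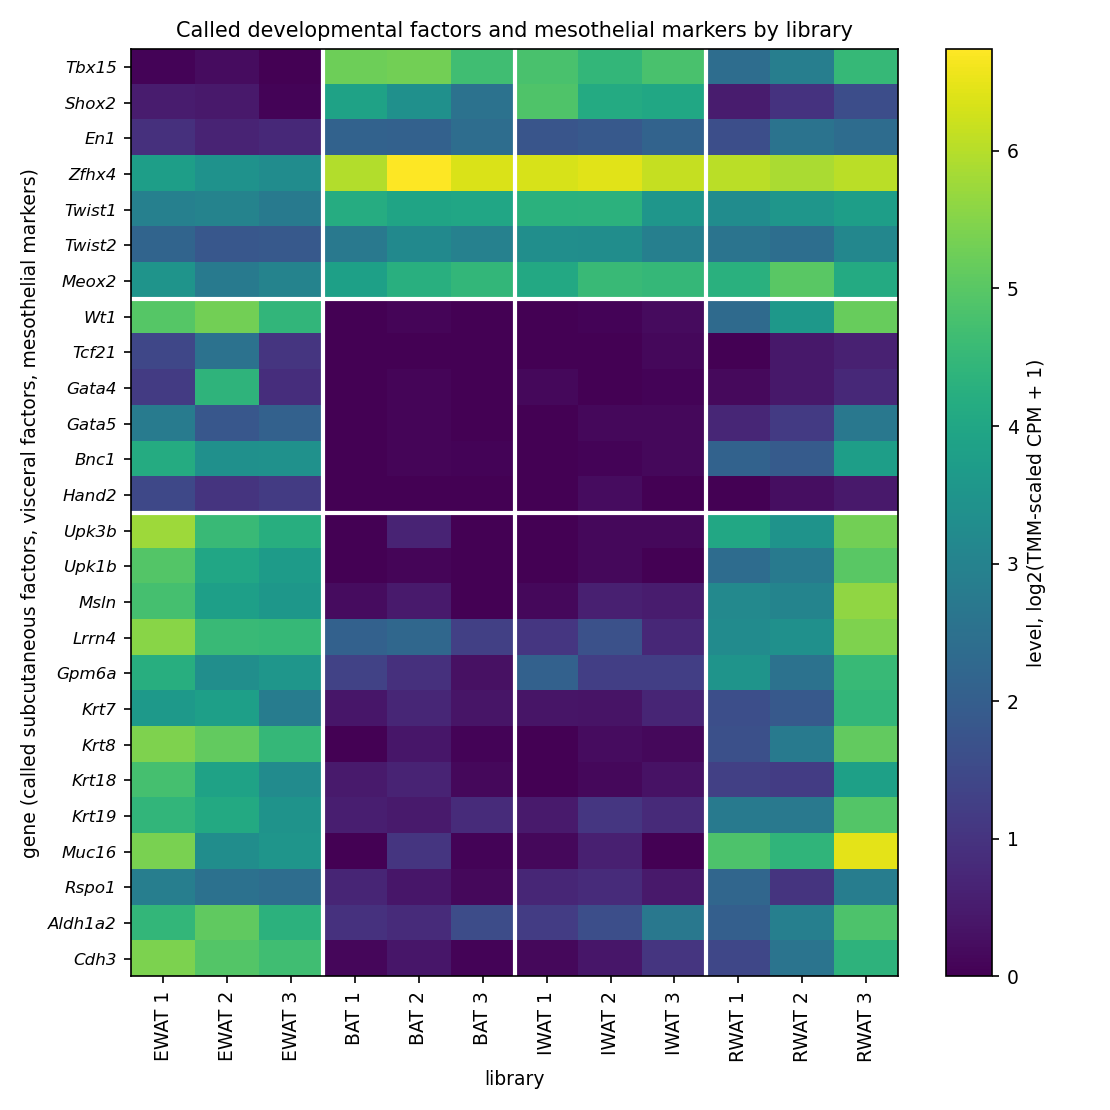
Levels, as log2 of CPM plus 1, of 7 called subcutaneous factors and of the called visceral factors and mesothelial markers in the 12 libraries, with dark cells low and yellow cells high. Subcutaneous factors are low in the 3 EWAT columns, while visceral and mesothelial genes are low in BAT and IWAT and mostly higher in EWAT and in RWAT 3.

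Basement membrane and collagen chains were chosen for description after their values were seen. Col6a5, a collagen VI chain (ENSMUSG00000091345, chr9:105856078-105960643, minus strand), was at 319, 189 and 168 CPM in EWAT, at 1.57 to 9.87 CPM in BAT and IWAT, and at 24.9, 21.1 and 74.7 CPM in RWAT. Its level in EWAT was 225 ± 81.4 CPM (SD, n = 3), above all other libraries (4.69, SE 0.50, adjusted p 0.00232). Col4a6, a basement membrane collagen chain, was at 24.9, 18.0 and 18.2 CPM in EWAT and reached 12.5 CPM in RWAT 3 (3.85, adjusted p 0.00181). Both genes kept EWAT above all other libraries, with RWAT 3 next. Col4a5, the neighbouring chain, followed at 82.2, 64.3 and 56.7 CPM against at most 52.8 CPM (1.89, adjusted p 0.0182), but its adjusted p was 0.0986 without EWAT 2. Lama1, the laminin alpha chain of epithelia and of the testis, was at 9.81, 39.7 and 4.50 CPM and at most 1.85 CPM elsewhere. Of 25 genes on a basement membrane list, 4 were higher (these genes) and 1, Lama4, was lower. Without EWAT 2 the adjusted p of Lama1 was 0.0575 and that of Lama4 0.234.

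Myrf, a membrane-bound transcription factor, was at 47.5, 29.3 and 29.1 CPM in EWAT and at 4.47, 11.0 and 45.3 CPM in RWAT (3.64, adjusted p 0.00926). Lrp2, the endocytic receptor megalin of absorptive epithelia, was at 68.8, 15.3 and 10.2 CPM in EWAT and at 6.37, 6.40 and 27.6 CPM in RWAT (5.23, adjusted p 0.0112). Both were high in RWAT 3, as the mesothelial markers were. Lrp2 was highest in EWAT 1, where the epididymal epithelium list summed to 2308 CPM. It stood on a list of kidney and adrenal genes, of which 4 were tested and 3 higher (Lrp2, Cyp11a1 and Star). These were 75.0%, against 2.61% of all genes tested. Members could pass the filter on low counts through EWAT alone, so this share is a description and not a test. That list summed to 90.8, 115 and 20.4 CPM in EWAT, 2.44 to 7.68 CPM in BAT and IWAT and 11.4 to 53.6 CPM in RWAT. Without EWAT 2, 1 member was called. The source of these transcripts was not tested. Of 17 retinoid genes Aldh1a2, Cyp26a1 and Dhrs3 were higher (17.6%, against 2.61% of all genes tested). Aldh1a2, which makes retinoic acid, was at 21.1, 33.3 and 18.9 CPM in EWAT and at 3.10, 6.49 and 27.8 CPM in RWAT (2.77, adjusted p 0.0275). Dhrs3, which reduces retinal, was at 140, 151 and 183 CPM against 93.0 to 121 CPM in the other 9, a small difference without overlap (0.55, adjusted p 0.0458). Without EWAT 2 the adjusted p was 0.182 for Aldh1a2 and 0.194 for Dhrs3.

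Genes of testis, sperm and cilia made up part of the higher set, and their libraries were not alike. Of the 499 higher genes, 37 were on the epididymal, testicular and axonemal lists, of which 49 of 114 genes were tested. A further 15 were mesothelial markers, and 447 were on neither. The lists are not complete, so the 447 can hold other genes of these tissues. Most of the epididymal, testicular and axonemal lists were added after values were seen. Their members could pass the filter on low counts through EWAT alone, so the numbers called are a description and not a test. The axoneme and motile cilium list, added after values were seen, had 20 tested members, 17 of them higher (85.0%, against 2.61% of all genes tested). The other 9 libraries held only 1 to 11 of its 32 members at 1 CPM or more. The list summed to 27.8, 749 and 166 CPM in EWAT against 8.82 to 27.8 CPM elsewhere. Dnah8, an axonemal dynein of the sperm tail, was at 2.32, 219 and 37.2 CPM in EWAT, so EWAT 1 was within the range of the other depots (0.63 to 4.65 CPM). Cldn11, the claudin of the Sertoli cell barrier, was at 0.528, 75.8 and 3.10 CPM (adjusted p 0.02), and Amhr2, the receptor of anti-Müllerian hormone, was at 1.27, 51.1 and 4.70 CPM (adjusted p 0.019). Star, which carries cholesterol into mitochondria for steroid synthesis, was at 6.33, 63.5 and 5.15 CPM in EWAT and at 19.4 CPM in RWAT 3. EWAT 2 had by far the highest level of each of these genes, and without it the adjusted p was 0.166 for Dnah8, 0.161 for Cldn11, 0.34 for Amhr2 and 0.514 for Star. Most genes of sperm and epididymis did not pass the filter on low counts: 2 of 20 epididymal, 8 of 23 spermatid and 8 of 16 meiotic genes were tested. Of the first list of 25 epididymal epithelium and sperm genes, 6 were tested. In it 3 were higher with all libraries (Aqp9, Odf1 and Gapdhs) and 0 without EWAT 2.

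Genes of the adipocyte itself gave no call against the mean of the other depots. Of 20 white adipocyte genes, 20 lipogenic genes, 18 lipolytic genes and 34 nuclear genes of oxidative phosphorylation, 0 were called by edgeR in either direction, with medians of -1.22, -2.48, -1.31 and -1.37. All lipogenic, lipolytic and oxidative genes had a log2 fold change against the mean below 0. RWAT 2 and RWAT 3 were not above EWAT in these lists. Their sums were 4588 and 3809 CPM for lipogenic genes, against 4261 to 9184 CPM in EWAT. For lipolytic genes they were 2374 and 1433 CPM, against 3253 to 4839 CPM. For oxidative genes they were 2949 and 3206 CPM, against 3117 to 3576 CPM. At an unadjusted p under 0.05 the numbers were 7, 14, 5 and 34 in the same order, against 22.5% of all genes tested, so the white adipocyte and lipolytic lists were closer to that share than the lipogenic and oxidative ones. DESeq2 called 3, 11, 3 and 23 of them lower, limma-voom 0 in each list, and limma-voom with quality weights 9, 16, 11 and 34 lower and 1 white adipocyte gene higher. Adipoq was at 814 to 1829 CPM in BAT, 531 to 1947 CPM in IWAT and 257 to 1569 CPM in RWAT, so EWAT lay within the RWAT range (-1.21, adjusted p 0.285). Fasn, the fatty acid synthase, was at 1279, 1007 and 308 CPM in EWAT, at 2028 to 55180 CPM in BAT and IWAT, and at 20800, 250 and 550 CPM in RWAT (-4.17, SE 1.59, adjusted p 0.173). RWAT 2 and RWAT 3 were below or within the EWAT range, and RWAT 1 was far above it. Lep, the leptin gene, was at 179, 147 and 58.7 CPM in EWAT (adjusted p 0.549), and Agt, angiotensinogen, at 77.9, 68.9 and 25.7 CPM (1.53, adjusted p 0.171). Adrb3, the adipocyte beta-adrenergic receptor, was at 46.5, 43.9 and 26.9 CPM (-1.77, adjusted p 0.285).

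The 4 lists of immune genes gave 2 calls, both in the B cell list. Of 22 macrophage markers 0 were called, although 17 had a log2 fold change above 0 (median 1.11). In 5 of the 22 the EWAT libraries lay above the other 9, against 3.57% of all genes tested. Csf1r, the receptor that keeps macrophages alive, was among these 5, at 523, 733 and 602 CPM in EWAT against 145 to 496 CPM (1.07, SE 0.36, adjusted p 0.132). Among the macrophage markers 9 of 22 had an unadjusted p under 0.05, against 22.5% of all genes tested. DESeq2 called 4 higher and 2 lower, limma-voom 1 lower, and limma-voom with quality weights 11 higher and 3 lower. Of 16 T and NK cell markers and 19 complement genes 0 were called by edgeR, with 4 and 5 at an unadjusted p under 0.05, close to the share of all genes tested. DESeq2 called 2 in each of these lists, limma-voom 0, and limma-voom with quality weights 5 and 10. Among 15 B cell markers 2 were higher (13.3%, against 2.61% of all genes tested). They include Igkc, the kappa light chain, at 77.0, 8.69 and 16.6 CPM, with most of it in EWAT 1 (adjusted p 0.0394). Its adjusted p was 0.24 without EWAT 1, 0.0758 without EWAT 2 and 0.0629 without EWAT 3. Immune genes outside these lists were also called, and some are given after their values were seen. Ccl11, the chemokine eotaxin, was lower at 4.17, 6.00 and 5.05 CPM in EWAT against 10.4 to 39.5 CPM (-2.13, adjusted p 0.0123, and 0.072 without EWAT 2). Cd209f and Cd209g, lectins of the DC-SIGN family, were lower too, with adjusted p of 0.0312 and 0.0268, and of 0.194 and 0.154 without EWAT 2. The EWAT libraries lay below the other 9 in all 3 of these genes.

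**Figure D5:**
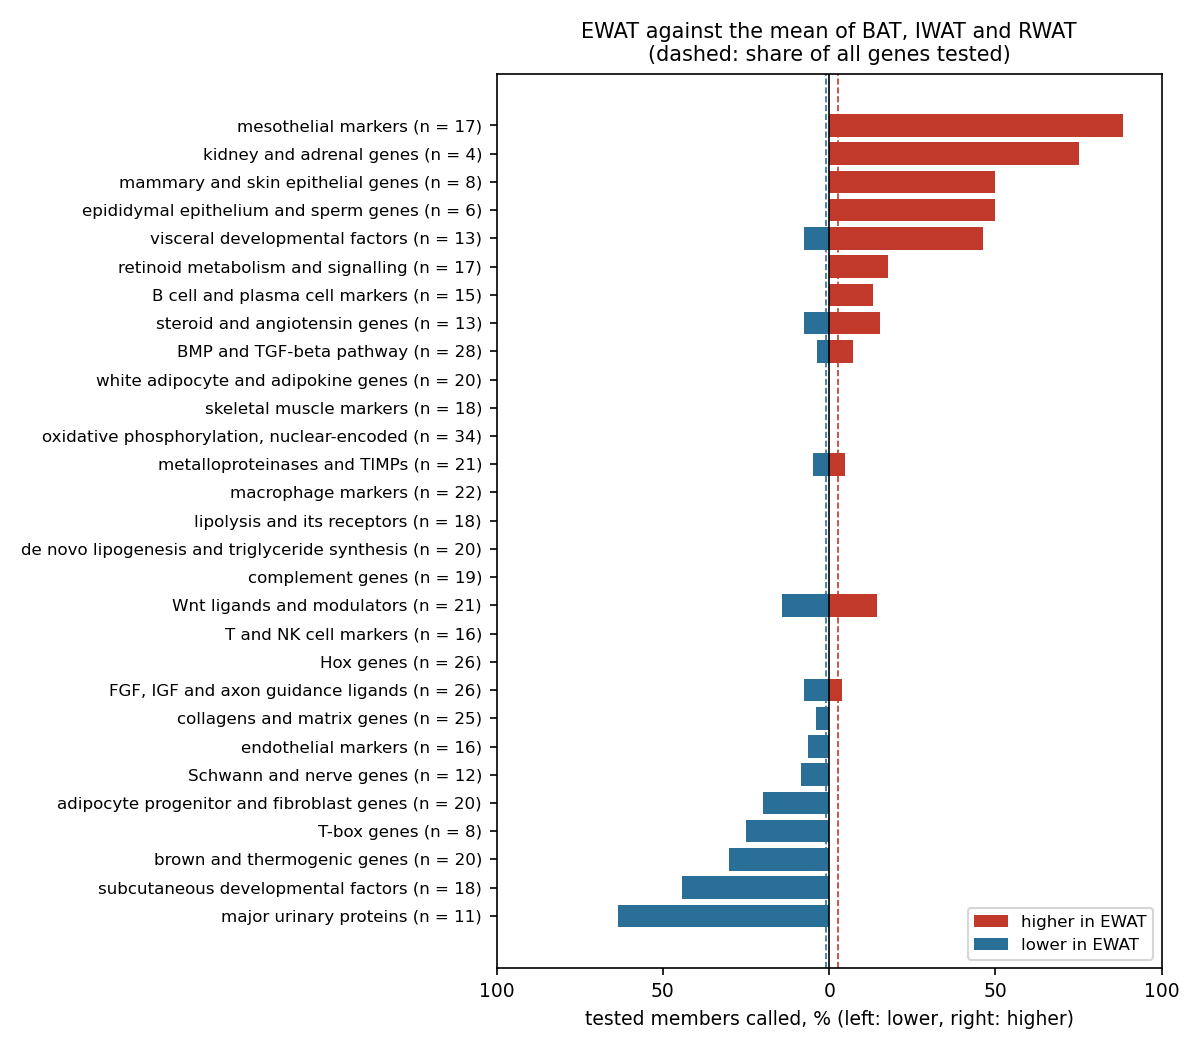
Share of tested members called higher (right) or lower (left) in EWAT for the 29 gene lists, in percent; dashed lines mark the shares of all genes tested, 2.61% and 0.888%. Mesothelial markers reach 88.2% on the higher side, major urinary proteins and subcutaneous factors lead the lower side, and adipocyte lists have none.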

How the data were processed

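RNA-seq gene values of 12 libraries were used, 3 each of denervated EWAT, BAT, IWAT and RWAT. Total RNA was sequenced after removal of ribosomal RNA, as single-end reads of 75 bases, per the labels' protocols. The authors trimmed with Trimmomatic 0.36 and quantified with RSEM 1.3.0 on GRCm38.p4, per the submitters' processing notes, which also name DESeq2 1.10.1; their annotation, and whether counting used strand, is not given in the sources used here. Each deposited file holds, per gene, RSEM expected counts (not normalised), the TPM that RSEM gives from them, per the file headers, and a posterior standard deviation of each count, also deposited, which was used only to check the named genes.

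Expected counts were rounded. Of 47729 genes, 19154 passed filterByExpr; 126 symbols belong to several identifiers. Libraries were scaled by TMM and all 12 were fitted together, each depot having its own coefficient, with the quasi-likelihood test of edgeR 4.0.16 under R 4.3.3, and p-values were adjusted by Benjamini-Hochberg over all genes tested. The biological coefficient of variation was 0.448. Log2 fold changes of genes near 0 depend on edgeR's prior count. A count of 0 allows up to 3 counts, 0.1285 to 0.1583 CPM in EWAT after TMM scaling, which covers counting error only. All 12 files differed in their values. On simulated counts of 18851 genes, EWAT against the mean recovered 18%, 60%, 92% and 82% of genes changed 2, 4, 8 and 16-fold. There were 9 false calls among 135. Calls against each depot recovered 0%, 46%, 74% and 70% in the same order, with 0 false calls among 95. These rates describe the simulated counts only. Whether they hold for genes that differ among the EWAT libraries or among the other depots was not tested.

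The comparison, its gene lists and its members were chosen with earlier results of these data known. Named genes were 15 core genes, up to 10 in each direction among genes high or low only in EWAT (at least 5 CPM in the highest depot, no overlap between groups, not a predicted gene), and from each list the 2 called members that changed most in either direction, or the most abundant member where none was called; others were chosen after their values were seen. Lists are described by counts and medians, with no set test. Alternatives were other scalings, filters and thresholds, limma-voom (limma 3.58.1), DESeq2 1.42.0, a replicate block and leaving out libraries. Promoter windows came from RefSeq. Some genes counted among the calls are not reported here by name.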

Additional observations from a re-analysis of the deposited data

How the results depend on the processing

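With all 12 libraries, edgeR gave 499 higher and 170 lower genes against the mean, 1 high only and 4 low only in EWAT. RLE scaling kept these counts within 1.5 times. Without TMM there were 81 lower genes and 0 high only, and the median log2 fold change over the genes tested went from 0.03 to 0.32. With no filter 1554 genes were higher, and with at least 1 CPM in 3 libraries 330 higher and 109 lower. DESeq2 gave 1680, 1064, 371 and 76 in the same order, limma-voom 208, 73, 3 and 2, and limma-voom with quality weights 2795, 2283, 4 and 8. With EWAT and the other depots as 2 groups 385 genes were higher and 113 lower. That fit kept 349 of the 499 higher and 98 of the 170 lower genes. Wt1, Upk3b and Krt8 were among the genes it did not call. At an adjusted p under 0.01 the counts were 52, 12, 0 and 2. Leaving out 1 library gave 49 to 1565 higher, 7 to 377 lower, 0 to 655 high only and 0 to 27 low only. The fits that left out 1 library filtered genes anew and tested 19608 to 20694 genes. Chosen after seeing the data, fits without EWAT 1 and 2 gave 504, 14, 46 and 1, fits without EWAT 2 and 3 gave 162, 10, 25 and 0, and fits without BAT 1, BAT 2 and RWAT 3 gave 34, 15, 0 and 0; a lone library is then assumed to vary like the other groups. The cause of these shifts was not tested. None of the 109 named genes changed sign in a called value under the alternatives it was fitted with. Medians of 7 of the 35 lists did change sign without TMM or without EWAT 1, EWAT 2 or RWAT 3. These were the T-box, matrix, metalloproteinase, BMP, complement, endothelial and basement membrane lists, whose medians lay within 0.25 of 0.

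With the replicate number as a replicate block, 1198 genes were higher, 623 lower, 3 high only and 6 low only. Of 18 pairs of libraries with the same number, 10 had a correlation of deviations above 0.1 (range -0.347 to 0.678), so the numbers were not taken to pair the samples, which would need every pair above 0.1. For 7 of the 12 libraries the single best partner had the same number, and 1 library correlated best with its own number in every other depot, a hint from the data and not the design. Depth limits the genes near 0 in EWAT: Tbx15, Lhx8 and Ucp1 rest on 0 to 4 counts per EWAT library, so their fold changes depend on the prior count.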

Other observations

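Several genes that were higher in EWAT stand outside the groups described above and were picked for their values. Alox15, a lipoxygenase of fatty acids, was at 37.0, 74.7 and 21.4 CPM in EWAT and at most 6.63 CPM elsewhere (log2 fold change 5.12, edgeR Benjamini-Hochberg adjusted p 0.0141, and 0.0986 without EWAT 2). F5, coagulation factor V, was at 36.9, 73.1 and 39.2 CPM in EWAT and at 0.945 to 17.0 CPM elsewhere (3.23, adjusted p 0.011, and 0.0758 without EWAT 2). Selp, the adhesion molecule P-selectin, was at 15.2, 21.1 and 12.5 CPM against 5.04 to 8.81 CPM (1.28, adjusted p 0.0112, and 0.0932 without EWAT 2). Vsig4, a complement receptor of macrophages, was at 14.7, 12.9 and 8.60 CPM against 0.63 to 7.88 CPM (2.43, adjusted p 0.011, and 0.0649 without EWAT 2). In each of these 4 genes all EWAT libraries lay above the other 9. F5 and Selp overlap Gm16548 on the opposite strand.

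Rps16, a ribosomal protein gene, was at 77.0, 94.5 and 87.7 CPM in EWAT, at 55.5 to 81.5 CPM in BAT, and at 14.5 to 24.8 CPM in IWAT and RWAT (1.54, adjusted p 0.00212). Rps16-ps2, an annotated pseudogene, followed the same order of depots, at 92.0, 103 and 98.4 CPM in EWAT, 57.3 to 86.4 CPM in BAT and 11.6 to 19.6 CPM in IWAT and RWAT (1.85, adjusted p 0.00181). Gm12918 was at 51.4, 54.7 and 71.7 CPM in EWAT and 20.4 to 84.5 CPM in BAT, and at 0 in all 6 libraries of IWAT and RWAT. Rps16 and its pseudogene can share reads, so the level of each is uncertain.

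Trank1, a large protein with tetratricopeptide and ankyrin repeats, was at 23.4, 45.3 and 4.45 CPM in EWAT and at most 0.551 CPM in the other 9 libraries (7.26, adjusted p 0.00187). It was called against BAT and IWAT but not against RWAT (adjusted p 0.0933), where its levels were at 0.045 to 0.179 CPM.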
